A study of Mus musculus with 22 samples.

Results

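The genes described here are Lck, Fyn, Txk, Themis, Plcg1, Lcp2, Ptpn22, Ubash3a and Cblb, which encode kinases that act next to the T-cell receptor (TCR) and the proteins that pass on or dampen their signal. They are 9 of the 37620 entries of the count table and were listed by name for their role, with earlier results of these data known. The RNA came from female C57BL/6 mice of the PyMT strain, 20 to 24 weeks old, whose mammary tumours, driven by a viral middle T transgene, were pooled and sorted into 11 populations of lymphocytes, each sequenced as 2 libraries. All populations thus shared a tumour-bearing host, and cells of a healthy gland were not analysed here. Surface markers name the 5 populations of a first set, TCRb+CD8a+NK1.1+, TCRb+CD8a-NK1.1+, TCRb+CD8a+PD1+, TCRb+CD8a+PD1-NK1.1- and TCR-NK1.1+, called below NK1.1+ CD8a+ T cells, CD8a-NK1.1+ T cells, PD1+ cells, PD1-NK1.1- cells and TCR-NK1.1+ cells. The other set of 6 populations holds TCRgd+ILTC1 and TCRab+ILTC1 cells (type 1 innate-like T cells), TCRgd+NK1.1- and TCRb+CD8a+NK1.1- cells, ILC1l cells (innate lymphoid cells like type 1) and cNK cells (conventional natural killer cells). Nothing in the labels says that the libraries of a population came from separate animals, so p-values measure only the spread between these libraries.

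When a TCR binds its ligand, the Src-family kinases Lck and Fyn phosphorylate the tails of the CD3 chains, Zap70 docks there, and the adaptors Lat and Lcp2 (SLP-76) assemble a complex that holds phospholipase C gamma 1, the product of Plcg1. Tec-family kinases, among them Txk (Rlk), phosphorylate that phospholipase, which then releases calcium and activates protein kinase C and Ras. Themis is a T-lineage adaptor needed for the selection of thymocytes, Ptpn22 is a phosphatase that acts on Lck and Zap70, Ubash3a (Sts-2) binds ubiquitin and dampens TCR signals, and Cblb is a ubiquitin ligase that restrains T-cell activation. Natural killer cells use a related machinery behind receptors that carry Tyrobp, Fcer1g or Cd247, with Syk beside Zap70 and Plcg2 beside Plcg1.

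Total counts per library ran from 8696335 to 20602715, and a count of 3 equalled 0.146 to 0.345 CPM (counts scaled to library depth with TMM factors, used for all levels below unless another scale is named). The RNA of the gate markers mostly followed the labels: Klrb1c, which encodes NK1.1, lay at 888 to 2483 CPM in every library of a population labelled NK1.1+, ILTC1, ILC1l or cNK and at 0.801 to 87.6 CPM in the others; all populations of the first kind are called NK1.1+ below, ILTC1, ILC1l and cNK by this RNA alone. Cd3e, a defining chain of the TCR complex, was not absent from TCR-NK1.1+ cells, which were sorted as lacking a TCR, nor from ILC1l cells. It lay at 208 and 418 CPM in TCR-NK1.1+ cells and at 88.4 and 477 CPM in ILC1l cells, against 0.622 and 6.13 CPM in cNK cells and 585 to 1875 CPM in the T-cell populations. Markers of other cells also differed between gates: 20 myeloid markers summed to 6814 and 15846 CPM in TCRgd+NK1.1- cells and to 23.5 to 1446 CPM elsewhere. Whether all of these sums came from other cells was not tested. Of 16 epithelial markers, Cdh1 lay at 168 to 1235 CPM in every population but cNK, also where the others were low, and was left out after its values were seen; the rest summed to 6182 and 3450.0 CPM in TCR-NK1.1+ cells and to 21.1 to 3955 CPM elsewhere.

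All 9 genes passed the filter on low counts in both sets. Per kilobase of exon, Lck was the most abundant, with a median of 514 CPM per kb over the 11 population means (lowest 269, highest 681). Lengths were unions of all annotated exons of a gene, from 2929 bases for Lck to 11682 for Themis. The order per kb depends on these lengths, which can exceed that of the expressed transcript. Lcp2 (median 108 CPM per kb) and Ptpn22 (82.6 CPM per kb) followed. Txk, Fyn, Plcg1, Cblb and Ubash3a had medians of 34.1, 26.6, 11.1, 8.80 and 8.20 CPM per kb. Themis had the widest range, with a median of 4.20, a lowest value of 0.0304 and a highest of 46.8 CPM per kb. The ratio of the highest to the lowest population mean was 1427 for Themis in the second set and 1.72 to 2.53 for Lck. Differences arose for 5 genes among the 5 populations of the first set (edgeR quasi-likelihood F test, Benjamini-Hochberg adjusted over 15727 genes), which is 5 of 9 where 6.1% of all genes tested did: Txk (adjusted p = 0.00129), Ubash3a (0.00844), Fyn (0.0208), Plcg1 (0.036) and Themis (0.0456). The count of 5 became 3 without TCR-NK1.1+ replicate 1 or PD1-NK1.1- replicate 2 and 2 without either NK1.1+ CD8a+ library, either PD1+ library or PD1-NK1.1- replicate 1. In the second set 4 of 9 genes differed, where 4.76% of 16828 genes did: Themis (adjusted p = 0.00154), Txk (0.00385), Plcg1 (0.00693) and Ubash3a (0.0152). Lck, Lcp2, Ptpn22 and Cblb passed in neither set. In bulk libraries, fewer cells of a type and less RNA per cell cannot be told apart.

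**Figure D1:**
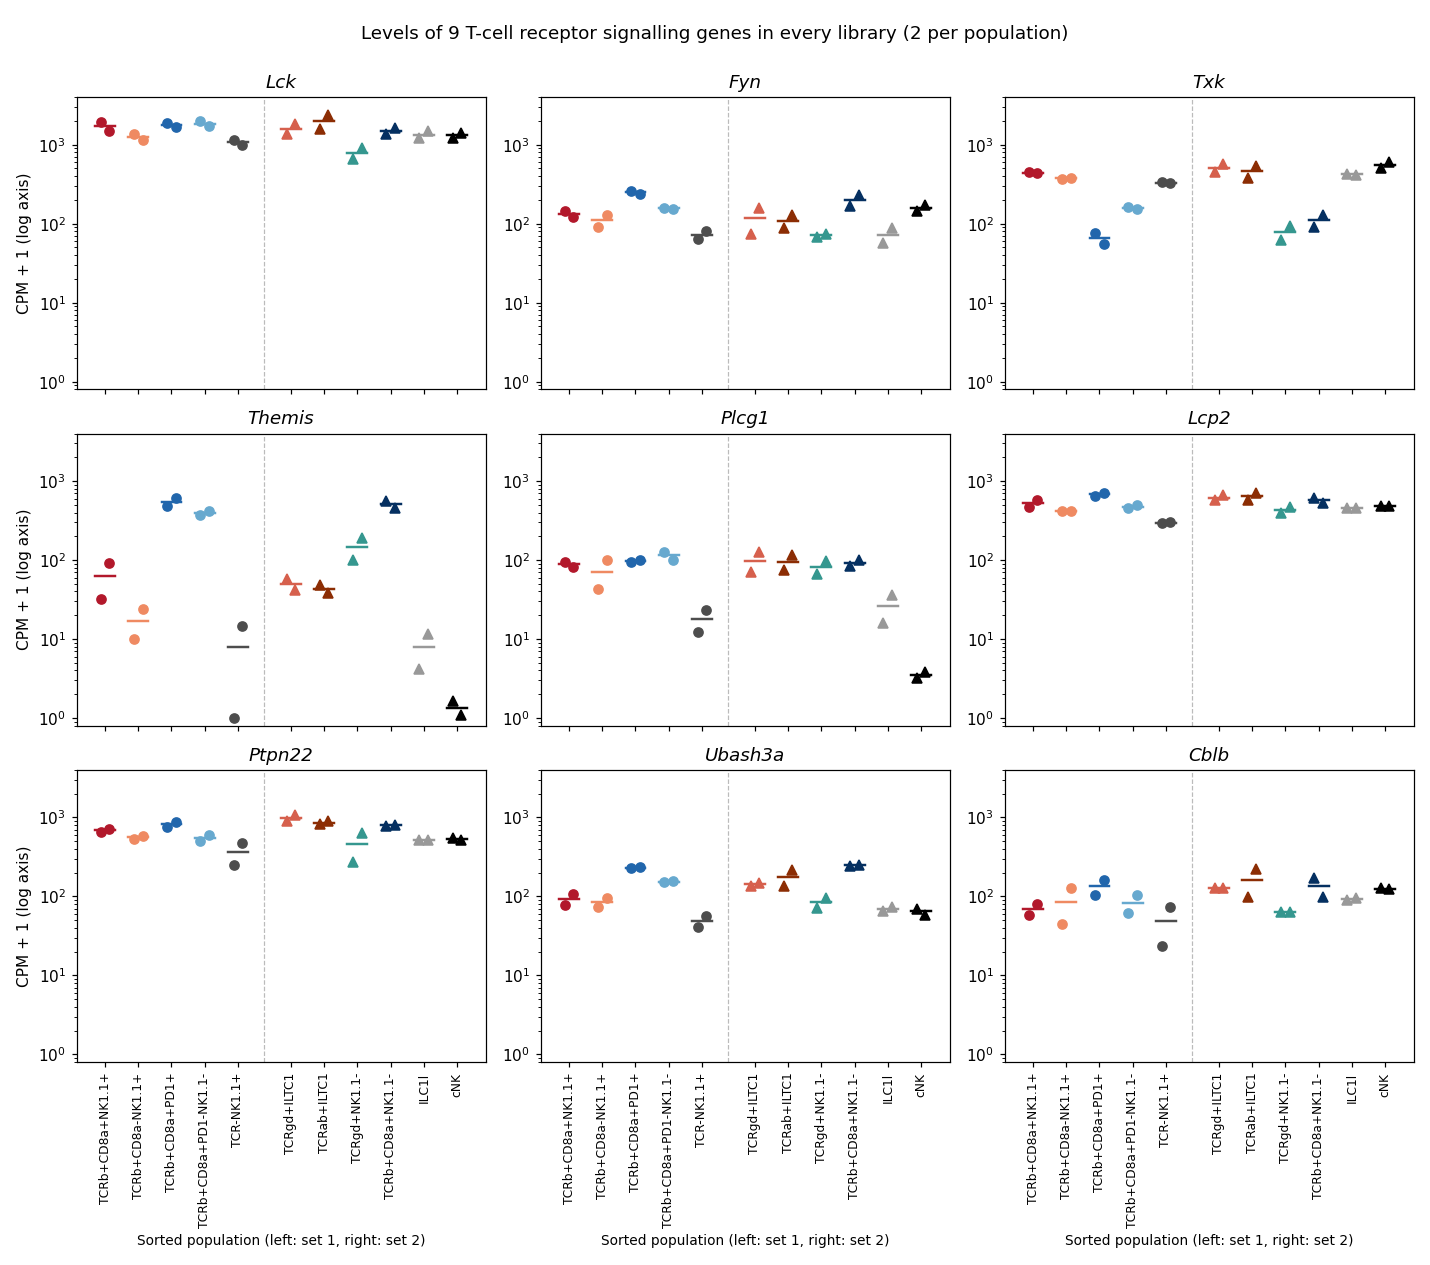
CPM + 1 on a log axis (y) of each gene in each sorted population (x); circles are libraries of the first set, triangles of the second, and each line is the mean of the 2 libraries. Txk is low in the populations without NK1.1, Themis is high in the NK1.1- CD8a+ T cells and near 0 in cNK cells, and Plcg1 is low in TCR-NK1.1+, ILC1l and cNK cells.

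Because Txk, Themis and Plcg1 varied most by gate, the 250 bases before their outermost annotated starts are shown, 5′ to 3′ in the direction of transcription, from RefSeq on GRCm38.p6; a core word of T-box factors, the family of Tbx21 and Eomes, is in capitals.
Txk, chr5:72752778-72753027, minus strand: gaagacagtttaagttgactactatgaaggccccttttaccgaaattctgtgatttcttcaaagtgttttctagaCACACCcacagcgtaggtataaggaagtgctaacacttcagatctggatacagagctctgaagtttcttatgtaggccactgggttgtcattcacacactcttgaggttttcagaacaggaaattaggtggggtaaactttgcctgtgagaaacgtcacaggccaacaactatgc
Themis, chr10:28668110-28668359, plus strand: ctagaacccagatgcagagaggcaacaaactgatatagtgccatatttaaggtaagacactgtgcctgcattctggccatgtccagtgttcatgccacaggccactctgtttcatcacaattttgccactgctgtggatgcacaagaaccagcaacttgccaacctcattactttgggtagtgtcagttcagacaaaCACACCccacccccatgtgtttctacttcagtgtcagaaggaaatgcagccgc
Plcg1, chr2:160731060-160731309, plus strand: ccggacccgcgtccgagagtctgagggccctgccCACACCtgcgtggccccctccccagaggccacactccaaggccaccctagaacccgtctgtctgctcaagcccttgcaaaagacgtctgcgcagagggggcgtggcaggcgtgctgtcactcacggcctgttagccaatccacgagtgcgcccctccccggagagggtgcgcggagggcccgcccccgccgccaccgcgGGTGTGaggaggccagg
The word searched was GGTGTG on either strand, which reads CACACC when it lies on the minus strand. The bases after the RefSeq start of Plcg1 were not found near the 5′ end of any GENCODE transcript of the gene, unlike those of the other 8 genes, so distances for Plcg1 hold for the RefSeq start only. The word lay 175 bases before the start in Txk, 53 in Themis, and 17 and 216 in Plcg1. All 9 genes had a window, some with a second start (13 windows), and the word stood in those of 4 genes, Fyn being the fourth. Of 32851 single RefSeq windows of this length, 16.3% held it. This percentage and those below are shares of windows, whereas genes are counted here, so they are not directly comparable. A RUNX word (TGTGGT, in 14% of windows) stood in windows of Lck, Ptpn22 and the second start of Txk, and a GATA word (AGATAA, 9.99%) in those of Lcp2 and the second start of Txk. An ETS word (CCGGAAG, 6.91%) stood in none. The T-box and RUNX words can share letters, but no window of the 9 genes held both, and a match is a run of letters, not a measured binding site.

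Lck, the kinase that starts the TCR signal and is held by the CD4 and CD8 coreceptors, lay at 1949 and 1501.5 CPM in NK1.1+ CD8a+ T cells, 1371 and 1130.1 in CD8a-NK1.1+ T cells, 1869 and 1692 in PD1+ cells, 1976 and 1714.5 in PD1-NK1.1- cells and 1143 and 997 in TCR-NK1.1+ cells. The 3 CD8a+ populations overlapped one another and lay above both other populations, whose libraries overlapped. In the second set it lay at 1368 and 1837 CPM in TCRgd+ILTC1, 1593 and 2398 in TCRab+ILTC1, 666 and 911 in TCRgd+NK1.1-, 1365 and 1644 in TCRb+CD8a+NK1.1-, 1204 and 1470.2 in ILC1l and 1226 and 1395 in cNK cells. The TCRgd+NK1.1- libraries lay below all others of the set, and neighbours among the other 5 populations overlapped. Fyn, the second Src-family kinase of T cells, was highest in PD1+ cells at 262 and 237 CPM, followed by PD1-NK1.1- cells at 157 and 154 CPM, NK1.1+ CD8a+ T cells at 144 and 122 CPM, CD8a-NK1.1+ T cells at 91.0 and 127 CPM and TCR-NK1.1+ cells at 63.1 and 79.6 CPM. Only the third and the fourth of these overlapped. In the second set Fyn was highest in TCRb+CD8a+NK1.1- cells (166 and 231 CPM) and lowest in ILC1l (55.1 and 86.7 CPM) and TCRgd+NK1.1- cells (67.3 and 73.9 CPM), with cNK (145 and 171 CPM) above ILC1l cells. Lck counts exceeded Fyn counts 7.11- to 21.8-fold in the 22 libraries; the ratio is not corrected for gene length.

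Txk, the Tec-family kinase, was high in each NK1.1+ population. In the first set it lay at 444 and 436 CPM in NK1.1+ CD8a+ T cells, 369 and 378 CPM in CD8a-NK1.1+ T cells and 335 and 323 CPM in TCR-NK1.1+ cells, but at 74.2 and 54.8 CPM in PD1+ and 162 and 150.5 CPM in PD1-NK1.1- CD8a+ T cells. No neighbouring populations in this order overlapped. In the second set it lay at 445 and 569 CPM in TCRgd+ILTC1, 382 and 541 in TCRab+ILTC1, 60.9 and 92.0 in TCRgd+NK1.1-, 89.6 and 129 in TCRb+CD8a+NK1.1-, 427 and 418 in ILC1l and 512 and 606 CPM in cNK cells. The 4 NK1.1+ populations overlapped as neighbours and lay above both NK1.1- populations, which overlapped each other. In each set, T cells without NK1.1 thus had less Txk than T cells and other lymphocytes with it.

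Themis, the T-lineage adaptor, had another order. It lay at 30.7 and 91.1 CPM in NK1.1+ CD8a+ T cells, 8.95 and 22.9 in CD8a-NK1.1+ T cells, 479 and 614 in PD1+ cells, 375 and 421 in PD1-NK1.1- cells and, in TCR-NK1.1+ cells, at 0 counts in replicate 1 and 13.8 CPM in replicate 2. Both NK1.1- CD8a+ populations lay above both NK1.1+ T-cell populations, and the 2 lowest populations overlapped. In the second set it lay at 57.3 and 40.9 CPM in TCRgd+ILTC1, 47.4 and 36.8 in TCRab+ILTC1, 100.4 and 188 in TCRgd+NK1.1-, 558 and 458 in TCRb+CD8a+NK1.1-, 3.15 and 10.6 in ILC1l and 0.622 and 0.0889 CPM (8 counts and 1 count) in cNK cells. Only both ILTC1 populations overlapped. Over the population means, centred on each set, Txk and Themis had a Pearson r of -0.718 (11 populations, a description, since populations of a set share 1 fit and gates share markers), the most negative of all pairs among the 9 genes.

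Plcg1, whose product cleaves a membrane lipid to raise calcium, was low in TCR-NK1.1+, ILC1l and cNK cells. It lay at 93.9 and 80.6 CPM in NK1.1+ CD8a+ T cells, 42.4 and 98.1 in CD8a-NK1.1+ T cells, 93.7 and 98.3 in PD1+, 127 and 99.4 in PD1-NK1.1- and 11.2 and 22.3 CPM in TCR-NK1.1+ cells. In the second set it lay at 69.2 and 125 CPM in TCRgd+ILTC1, 73.8 and 115 in TCRab+ILTC1, 65.7 and 97.6 in TCRgd+NK1.1-, 82.2 and 98.8 in TCRb+CD8a+NK1.1-, 15.1 and 34.9 in ILC1l and 2.26 and 2.84 CPM in cNK cells. In the first set every T-cell library lay above both TCR-NK1.1+ libraries, and in the second above every ILC1l and cNK library; the T-cell populations overlapped as neighbours, apart from PD1-NK1.1- above PD1+ cells. Its paralog Plcg2, the isoform best known from B cells and NK cells, lay at 63.7 and 48.4 CPM in NK1.1+ CD8a+ T cells, 2.88 and 0.979 in PD1+ and 4.30 and 12.05 CPM in PD1-NK1.1- CD8a+ T cells, and at 96.7 and 110.4 CPM in cNK cells. All T-cell populations held counts of both paralogs, and the 2 lay closer in NK1.1+ T cells and TCRgd+NK1.1- cells than in NK1.1- CD8a+ T cells. Myeloid markers summed to 6814 and 15846 CPM in the TCRgd+NK1.1- libraries, and the part of that RNA in their Plcg2 was not tested. There were 1.03 to 3.13 Plcg1 counts per Plcg2 count in the 8 libraries of NK1.1+ T cells and 1.81 and 1.71 in TCRgd+NK1.1- cells, inside that range, against 5.64 to 100.4 in the 6 libraries of NK1.1- CD8a+ T cells and 0.0233 and 0.0258 in cNK cells.

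**Figure D2:**
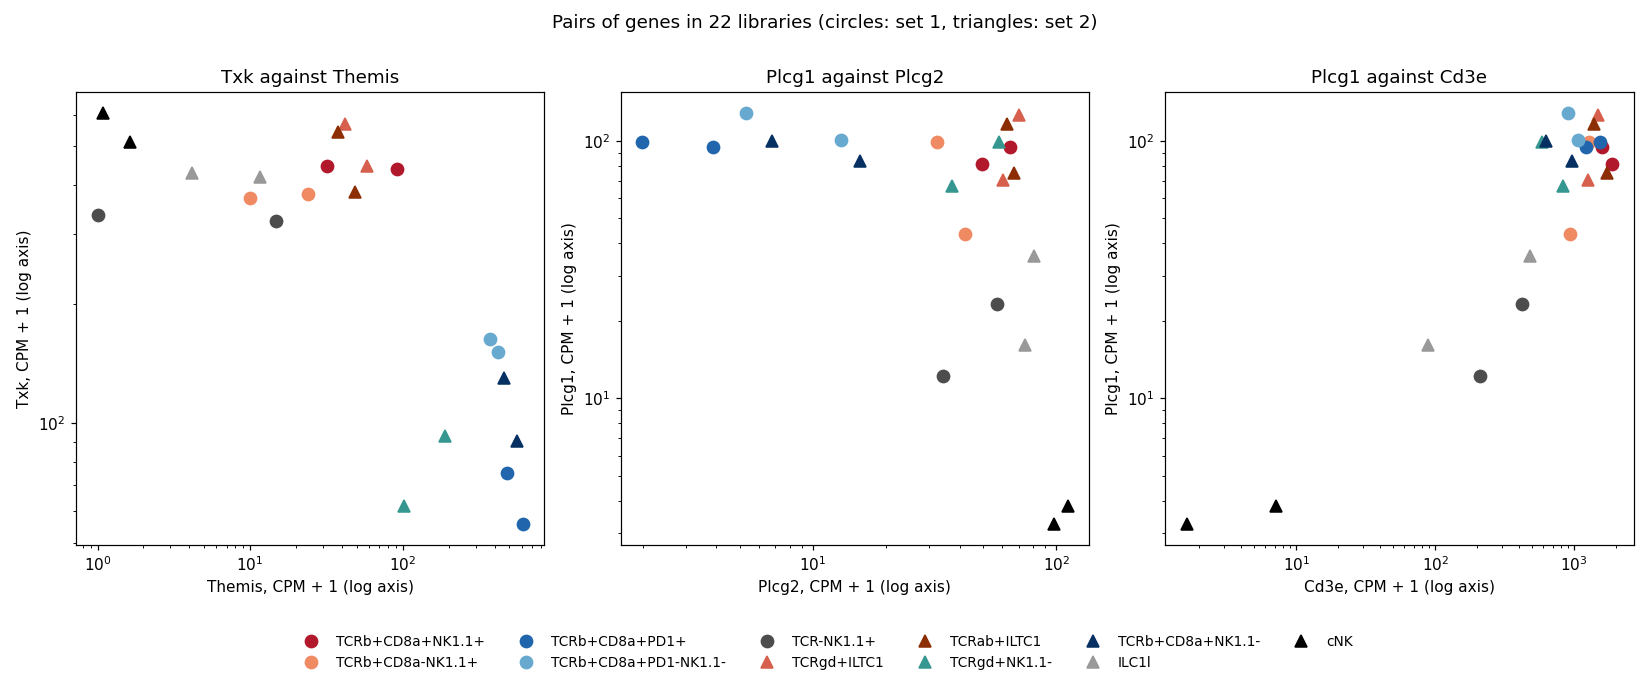
Levels of 2 genes in each of 22 libraries, as CPM + 1 on log axes: Txk (y) against Themis (x), Plcg1 (y) against Plcg2 (x) and Plcg1 (y) against Cd3e (x); colours are populations, circles the first set and triangles the second. NK1.1- T cells sit at low Txk and high Themis, and the populations low in Plcg1 are those low in Cd3e. Plcg1 and Plcg2 lie closer in NK1.1+ T cells and TCRgd+NK1.1- cells than in NK1.1- CD8a+ T cells. The part of myeloid RNA in Plcg2 of TCRgd+NK1.1- cells was not tested.

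Lcp2, the scaffold that brings Plcg1 to its kinases, spanned 293 to 706 CPM over all 22 libraries, lowest in TCR-NK1.1+ cells (293 and 299.9 CPM) and highest in PD1+ cells (655 and 706 CPM). Ptpn22, the phosphatase, spanned 248 to 1075 CPM, with its highest level in TCRgd+ILTC1 cells (891 and 1075 CPM), whose libraries overlapped those of TCRab+ILTC1 cells. Cblb, the ubiquitin ligase, spanned 22.3 to 223 CPM, and in the first set every pair of neighbouring populations overlapped. Within each set, Ubash3a was highest in NK1.1- CD8a+ T cells: 225 and 237 CPM in PD1+, 150.5 and 155 CPM in PD1-NK1.1- and 241 and 252 CPM in TCRb+CD8a+NK1.1- cells. It lay at 77.0 and 107 CPM in NK1.1+ CD8a+ T cells, 73.1 and 95.5 in CD8a-NK1.1+ T cells, 135 and 147 in TCRgd+ILTC1, 134 and 218 in TCRab+ILTC1 and 69.9 and 95.8 in TCRgd+NK1.1- cells. The lowest population means of each set were in cells other than T cells, with 40.2 and 55.0 CPM in TCR-NK1.1+, 64.5 and 73.3 in ILC1l and 69.2 and 57.8 CPM in cNK cells. The ILC1l libraries overlapped both those of cNK and those of TCRgd+NK1.1- cells. The highest Pearson r among the 9 genes joined Lcp2 and Ptpn22 (0.930), then Lcp2 and Cblb (0.898), and Themis and Plcg1 (0.886; 11 populations each, no test).

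NK1.1+ against PD1+ CD8a+ T cells sets the innate-like CD8a+ cells beside those that carry the inhibitory receptor PD1. Txk rose, with a log2 fold change of 2.77 ± 0.25 (SE; adjusted p = 0.000767, edgeR quasi-likelihood test over 15727 genes), and Ubash3a fell, with -1.33 ± 0.29 (adjusted p = 0.049). These were 2 of 9 genes, where 2.11% of all genes tested passed. Themis had -3.17 ± 1.23 (adjusted p = 0.353) and Fyn -0.91 ± 0.27 (adjusted p = 0.177). A single gene lay higher (Txk) and 6 lower with no overlap of libraries, where 21.7% and 23.1% of all genes did, and the median log2 fold change was -0.39, against 0.00 over all genes. Of 20 other activators of proximal TCR signalling, only Lat, the membrane scaffold, passed: 172 and 204 CPM in NK1.1+, against 427 and 517 CPM in PD1+ cells, log2 -1.33 ± 0.27, adjusted p = 0.0333. Of 20 other inhibitors, Pag1, which recruits the Lck-inhibiting kinase Csk, rose (2.42 ± 0.33, adjusted p = 0.00489), and the adaptor Sit1 fell (-2.45 ± 0.34, adjusted p = 0.00565). Of 12 relatives best known from other blood cells, 4 rose and none fell: Fgr (3.77 ± 0.36, adjusted p = 0.000854), Plcg2 (4.82 ± 0.67, 0.00531), the kinase Lyn (3.52 ± 0.60, 0.0133) and the kinase Tec (1.71 ± 0.31, 0.0196). The Txk call held without each of the 4 libraries (adjusted p 0.00459 to 0.0117), whereas that of Ubash3a was lost without each of them (0.171 to 0.481). With the TCR-NK1.1+ population left out of the fit, Themis passed (adjusted p = 0.0252, edgeR). Themis also passed without the filter on low counts (6.45e-15, edgeR), and Fyn passed with DESeq2 (0.0142).

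NK1.1+ against PD1-NK1.1- CD8a+ T cells gave 1 of 9 genes, where 1.78% of all genes passed: Txk rose by a log2 of 1.49 ± 0.24 (adjusted p = 0.0166). Themis had -2.71 ± 1.21 (adjusted p = 0.507) and Ubash3a -0.73 ± 0.29 (0.397). Without overlap, 2 genes lay higher and 4 lower (20.3% and 20.2% of all genes), with a median of -0.23 (0.00 over all genes). Lat fell again among the 20 activators (-1.30 ± 0.27, adjusted p = 0.0433), and of the 20 inhibitors Sit1 (-2.53 ± 0.34, 0.00764), Dgka, a kinase that removes diacylglycerol (-2.32 ± 0.37, 0.0152), and Cd5, an inhibitory surface receptor of T cells (-2.22 ± 0.37, 0.0183), fell and none rose. Of the 12 relatives, Fgr (2.86 ± 0.35, 0.00374), Lyn (3.14 ± 0.59, 0.0302) and Tec (1.55 ± 0.31, 0.0398) rose. Syk, the relative of Zap70, also rose, with 2.42 and 1.34 CPM in NK1.1+ cells, against 0 counts in both PD1-NK1.1- libraries (adjusted p = 0.0398). This comparison and the one with PD1+ cells share the NK1.1+ libraries. The Txk call was lost without each of the 4 libraries (adjusted p 0.129 to 0.142, log2 1.44 to 1.55). Without the filter on low counts, Themis also passed (adjusted p = 4.07e-11, edgeR).

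PD1+ against PD1-NK1.1- CD8a+ T cells gave 0 calls among the 9 genes with edgeR (1 with DESeq2, Txk), where 0.451% of all genes passed (71 genes, and 381 with DESeq2). Txk came closest, with 74.2 and 54.8 CPM in PD1+ cells, against 162 and 150.5 CPM in PD1-NK1.1- cells, a log2 of -1.28 ± 0.24 and an adjusted p of 0.0646. At an unadjusted p under 0.05, 6.77% of all genes passed, and Txk, Fyn (0.68 ± 0.27) and Lcp2 (0.52 ± 0.22) were among them. Without overlap, 6 of 9 genes lay higher and 2 lower (18% and 17.2% of all genes), with a median of 0.52 (0.00 over all genes), and Themis was at 0.46 ± 1.14. Pag1 was the only one of the 40 other proximal genes to pass, and it fell (-2.25 ± 0.32, adjusted p = 0.0205). With the TCR-NK1.1+ population left out of the fit, Txk passed (adjusted p = 0.0425, edgeR). Txk also passed without the filter on low counts (0.0133) and with replicate number as a block (0.03).

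NK1.1+ CD8a+ T cells against TCR-NK1.1+ cells, both with NK1.1, gave 1 of 9 genes, where 1.54% of all genes passed: Plcg1 rose by a log2 of 2.38 ± 0.45 (adjusted p = 0.0343). Without overlap, 8 of 9 genes (all but Cblb) lay higher and 0 lower, where 20.5% and 25.5% of all genes did, with a median of 0.90 (-0.05 over all genes), and Txk had 0.42 ± 0.24 (adjusted p = 0.444). Themis had 3.14 ± 1.25 (adjusted p = 0.27). Lat rose (1.48 ± 0.27, adjusted p = 0.0304), as did the inhibitors Cd6 (2.96 ± 0.33, 0.00482), Cd5 (3.00 ± 0.39, 0.00966) and Sit1 (2.15 ± 0.35, 0.021). CD8a-NK1.1+ T cells against the same TCR-NK1.1+ libraries gave 0 of 9 genes, as 0% of all genes passed with edgeR (8.55% at an unadjusted p under 0.05, among them 3 of the 9, and 201 genes with DESeq2, among them Plcg1). Plcg1 had 2.07 ± 0.45 (adjusted p = 0.235), and 6 of 9 genes lay higher and 0 lower without overlap, where 16.4% and 17.3% of all genes did, with a median of 0.64 (-0.04 over all genes). The Plcg1 call in CD8a+ cells was lost without NK1.1+ CD8a+ replicate 1 (adjusted p = 0.206), NK1.1+ CD8a+ replicate 2 (0.151) or TCR-NK1.1+ replicate 1 (0.217), and a Plcg1 call arose in CD8a- cells without CD8a-NK1.1+ replicate 1 (0.0181). DESeq2 called Plcg1, Fyn, Lcp2 and Ubash3a in CD8a+ cells, among 1143 genes. Without TCR-NK1.1+ replicate 2, Themis (adjusted p = 0.0199) and Ptpn22 (0.0388) passed beside Plcg1 (0.0489). Cd3e differed between the same CD8a+ and TCR-NK1.1+ libraries, and Plcg1 counts per Cd3e count were 0.0596 and 0.0430 in NK1.1+ CD8a+ T cells, against 0.0540 and 0.0533 in TCR-NK1.1+ cells. Themis counts per Cd3e count were 0.0195 and 0.0486 in NK1.1+ CD8a+ T cells, against 0 and 0.0329 in TCR-NK1.1+ cells. The part of T-cell RNA in the levels of either gene in TCR-NK1.1+ cells was not tested. Epithelial markers without Cdh1 summed to 73.2 and 56.6 CPM in NK1.1+ CD8a+ T cells, with Krt5, Krt14, Csn1s1 and Csn2 at 0, to 3955 and 309 CPM in CD8a-NK1.1+ T cells and to 6182 and 3450.0 CPM in TCR-NK1.1+ cells, where all 16 markers had counts; 20 myeloid markers summed to 23.5 and 25.3 CPM in NK1.1+ CD8a+ T cells, with 13 present in each library, to 408 and 74.9 CPM in CD8a-NK1.1+ T cells and to 578 and 658 CPM in TCR-NK1.1+ cells, with all 20 present. Between NK1.1+ CD8a+ and TCR-NK1.1+ cells all 20 lay lower without overlap and 2 passed. The Plcg1 call remained when other genes following epithelial or myeloid markers were left out. That fit does not test the part of other cells' RNA in the level of Plcg1.

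TCRab+ILTC1 against TCRb+CD8a+NK1.1- cells, a contrast of the second set, gave 2 of 9 genes, where 0.523% of all genes passed. Unlike the label of its reference, that of TCRab+ILTC1 names no CD8a gate, and neither label names PD1. Txk rose by a log2 of 2.08 ± 0.31 (adjusted p = 0.0341, over 16828 genes) and Themis fell, with a log2 of -3.59 ± 0.63 (adjusted p = 0.0456). Without overlap, 2 genes lay higher and 3 lower (17.5% and 25.1% of all genes), and the median was 0.11 (-0.07 over all genes). None of the 40 other proximal genes passed. Of the 12 relatives, Plcg2 rose: 65.7 and 62.0 CPM in TCRab+ILTC1, against 14.6 and 5.76 CPM in TCRb+CD8a+NK1.1- cells, log2 2.65 ± 0.45, adjusted p = 0.0427. The calls of Txk and Themis were lost without TCRab+ILTC1 replicate 2 (adjusted p = 0.154 and 0.241), TCRb+CD8a+NK1.1- replicate 1 (0.12 and 0.114) or TCRb+CD8a+NK1.1- replicate 2 (0.106 and 0.158). With all 22 libraries in 1 fit, the Themis call was lost (adjusted p = 0.119), as it was with replicate number as a block (0.0615, edgeR). Epithelial markers without Cdh1 summed to 56.1 and 54.1 CPM in TCRab+ILTC1, against 1484 and 2782 CPM in TCRb+CD8a+NK1.1- cells; their part was not tested.

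TCRgd+ILTC1 against TCRgd+NK1.1- cells gave 1 of 9 genes, where 1.59% of all genes passed: Txk rose by a log2 of 2.73 ± 0.32 (adjusted p = 0.00902). Without overlap, 6 genes lay higher and 1, Themis (-1.56 ± 0.59, adjusted p = 0.21), lower, where 20.2% and 21.5% of all genes did. The median was 0.77, against -0.13 over all genes, and another scaling (RLE) moved the median of all genes by a further -0.13. Lck had 1.02 ± 0.28 (adjusted p = 0.1), Ptpn22 1.11 ± 0.34 (0.134) and Cblb 1.04 ± 0.39 (0.21). The count of 1 became 2 with all 22 libraries in 1 fit (Lck, adjusted p = 0.031), 3 with DESeq2 (Lck, 0.0495, and Themis, 0.0435) and 4 without the filter on low counts (edgeR: Lck, 0.0169, Themis, 0.00378, and Ptpn22, 0.0154). Calls over all genes rose as well, from 268 to 626, 1872 and 1786 under these settings. Among the other proximal genes, Ptprc, the phosphatase CD45 (on average 3919 CPM, against 1382 CPM in TCRgd+NK1.1- cells, adjusted p = 0.0251), the adaptor Skap1 (1.25 ± 0.23, 0.0327) and the phosphatase Ptpn6 (1.24 ± 0.21, 0.026) rose. Blk, a Src-family kinase of B cells and some gamma delta T cells, fell: it had 2 counts and 0 counts in TCRgd+ILTC1, against 283 and 320.1 CPM in TCRgd+NK1.1- cells (adjusted p = 0.00902). Myeloid markers summed to 90.4 and 98.7 CPM in TCRgd+ILTC1, with 17 and 11 of 20 present, against 6814 and 15846 CPM in TCRgd+NK1.1- cells, with all 20 present; their part was not tested. Without TCRgd+NK1.1- replicate 2, Ptpn22 also passed (adjusted p = 0.0104). The Txk call was lost without TCRgd+ILTC1 replicate 2 (log2 fold change 2.55). It held when other genes following myeloid or epithelial markers were left out, but the myeloid ones were picked without the TCRgd+NK1.1- libraries. Such a fit changes only the scaling and the adjustment, so it cannot show the part of other cells' RNA in the level of Txk.

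TCRgd+ILTC1 against TCRab+ILTC1 cells gave 0 of 9 genes, as 0% of all genes passed with edgeR (3.39% at an unadjusted p under 0.05 and 77 genes with DESeq2, none of the 9 among either). The libraries of both populations overlapped for all 9 genes, where 26.9% of all genes tested did not overlap, and the log2 differences ran from -0.32 ± 0.39 (Cblb) to 0.22 ± 0.58 (Themis), with a median of 0.04 (0.00 over all genes). The difference between the TCRab+ and the TCRgd+ contrasts of ILTC1 with NK1.1- cells also gave 0 of 9 genes with edgeR and with DESeq2. Over all genes, 0.0535% passed with edgeR and 463 genes with DESeq2. At an unadjusted p under 0.05, 8.85% of all genes and 3 of the 9 passed. Themis had -2.04 ± 0.82 (adjusted p = 0.503), Fyn -1.60 ± 0.57 (0.447) and Ubash3a -1.26 ± 0.42 (0.416). Without the filter on low counts, Themis passed (adjusted p = 0.0226, edgeR).

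Both ILTC1 populations against ILC1l and cNK cells, which set NK1.1+ T cells beside innate lymphoid and NK cells, gave 3 of 9 genes, where 0.981% of all genes passed. Themis (4.82 ± 0.51, adjusted p = 0.00242), Plcg1 (3.58 ± 0.37, 0.00214) and Ubash3a (1.25 ± 0.21, 0.026) rose. Without overlap, 5 genes (these with Lcp2 and Ptpn22) lay higher and 0 lower, where 3.14% and 3.24% of all genes did, with a median of 0.43 (-0.08 over all genes). Txk had a log2 difference of -0.01 ± 0.21 and Fyn one of 0.08 ± 0.28 (adjusted p = 1 each). Of the other proximal genes, Trat1, which stabilises the TCR complex (3.36 ± 0.55, adjusted p = 0.0218), Cd6 (5.36 ± 0.52, 0.00174) and Cd5 rose; Cd5 lay at 8.65 and 5.01 CPM in TCRgd+ILTC1 and 38.7 and 1.23 CPM in TCRab+ILTC1, against 0 to 0.533 CPM in ILC1l and cNK cells (adjusted p = 0.0479). The calls of Themis and Plcg1 held without each of the 8 libraries (adjusted p 0.0022 to 0.0108 and 0.00214 to 0.0155), while that of Ubash3a held only without TCRab+ILTC1 replicate 1 and otherwise had an adjusted p of 0.0768 to 0.177.

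ILC1l against cNK cells compared the 2 populations of the second set whose names give no TCR. Plcg1 (3.29 ± 0.52, adjusted p = 0.0176) and Themis (4.19 ± 0.78, 0.0388) rose, 2 of 9 genes where 1.02% of all genes passed. Without overlap, 2 genes lay higher and 5 lower (27.3% and 26% of all genes), with a median of -0.07 (0.03 over all genes), and Fyn had -1.16 ± 0.41 (adjusted p = 0.319). Of 10 genes of the TCR complex and coreceptors, 5 rose in the same libraries, among them Cd3g (6.07 ± 0.63, adjusted p = 0.00212) and Cd3d (4.31 ± 0.62, 0.0105), and Cd247, a chain also used by NK receptors, fell (-1.92 ± 0.28, 0.0108). Cd8a lay at 52.9 and 256 CPM in ILC1l, against 0.156 and 2.58 CPM in cNK cells. ILC1l replicate 2 was the higher of the ILC1l libraries for Cd3e, Cd8a, Themis and Plcg1; the part of T-cell RNA in both calls was not tested. Myeloid markers summed to 102 and 116 CPM in ILC1l, with 14 and 12 of 20 present, against 1044 and 1446 CPM in cNK cells, with 17 and 19 of 20 present. Of the 20, 11 lay lower without overlap and 1 passed. The 20 include Itgam, and the part of the cNK sum that came from other cells was not tested. Both calls held when other genes following epithelial or myeloid markers were left out, a fit that does not test the part of other cells' RNA in either gene. The phosphatase Ptprc (-1.37 ± 0.25, adjusted p = 0.0376) and the adaptor Dok2 (-1.96 ± 0.31, 0.0182) fell. Both calls were lost without ILC1l replicate 2 (adjusted p 0.111 for Plcg1 and 0.225 for Themis, whose log2 fold change was 3.08 there), cNK replicate 1 (0.231 and 0.0913) or cNK replicate 2 (0.155 and 0.252). The Themis call was also lost with all 22 libraries in 1 fit (adjusted p = 0.187) and with replicate number as a block (0.0654, edgeR).

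**Figure D3:**
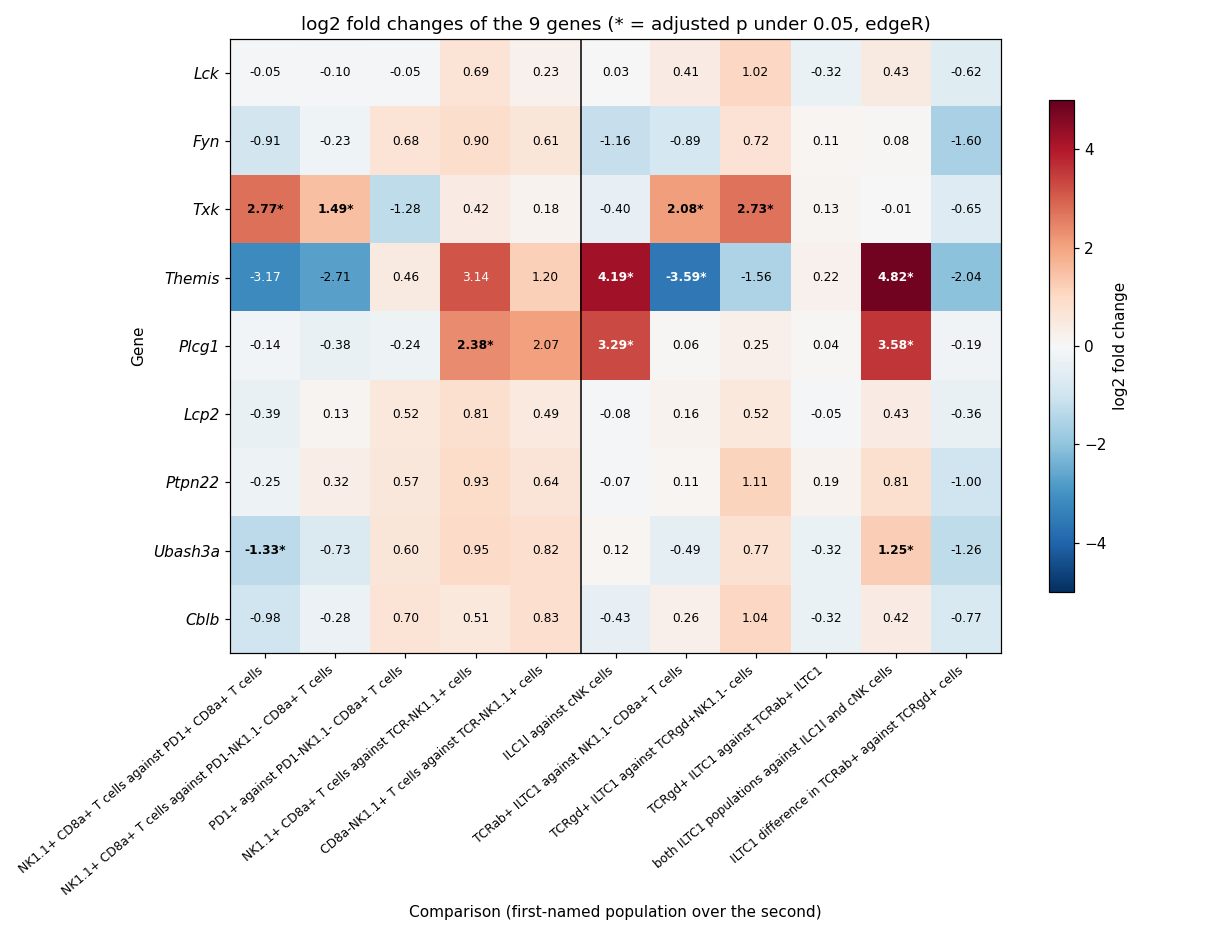
Log2 fold changes of the 9 genes (rows) in 11 comparisons (columns; first-named population over the second, a vertical line between the sets), with a star where the adjusted p was under 0.05. Txk is starred where NK1.1+ T cells are set against NK1.1- T cells, and Plcg1 in 3 of the contrasts that involve TCR-NK1.1+, ILC1l or cNK cells.

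Genes with the most similar pattern were sought among 8314 genes over the 11 population means, centred on each set, as a description with no test. Txk was most like Klra7 (Pearson r = 0.98), Klrb1c (0.977) and B3gat3 (0.974); Klra7 is an Ly49 receptor of NK cells whose near-identical relatives may share its reads, and Klrb1c encodes the sorted marker NK1.1 itself. Klra7 lay at 911 and 1074 CPM in NK1.1+ CD8a+ T cells, against 10.2 and 2.67 CPM in PD1+ cells. Themis was most like Bcl11b (0.976), a transcription factor of T-cell commitment, Camk4 (0.969), a calcium-dependent kinase, and Dhx58 (0.964). Bcl11b lay at 21.0 ± 4.66 CPM in TCRgd+ILTC1 and 33.4 ± 1.07 CPM in TCRab+ILTC1, against 5.54 ± 0.30 CPM in ILC1l and 3.53 ± 1.80 CPM in cNK cells (SD, n = 2 each). Plcg1 was most like Cd3d (0.98), Adam19 (0.973) and Cd6 (0.96). Ubash3a was most like Parp9 (0.977), Gbp2 (0.97) and Igtp (0.959), which are known as genes induced by interferon, and Gbp2 lay at 103 and 129 CPM in NK1.1+ CD8a+ T cells, against 243 and 268 CPM in PD1+ cells. Ptpn22 was most like Bcl2 (0.986), which protects lymphocytes from death, Abcb1a (0.984) and Fgfr1op2 (0.972). The first genes for Lck, Fyn, Lcp2 and Cblb were Rab3gap1 (0.969), Exoc4 (0.974), Cpsf2 (0.945) and Fmr1 (0.98). By Spearman's rho, the first genes for Themis, Plcg1, Fyn, Lck and Cblb kept first place, whereas Klra7 ranked 60 and Klrb1c 233 for Txk. Bcl2 ranked 3 for Ptpn22, Cpsf2 8 for Lcp2 and Parp9 10 for Ubash3a. By Pearson r without the TCRgd+NK1.1- population, Rab3gap1 ranked 4 for Lck. Bcl11b, Klra7 and Cpsf2 ranked 2 there for Themis, Txk and Lcp2, and the other first genes kept first place.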

How the data were processed

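Counts per gene for 22 libraries were deposited by the authors, made with BWA 0.7.5a, Picard and HTSeq per the submitters' processing notes; mm9 and NCBIM37 are the builds named; the sources used here give neither the role of each nor any use of strand. Per the labels' protocols, tumours were digested with collagenase and DNase, lymphocytes were enriched on Percoll and sorted, and cDNA was amplified with SMARTer. Titles spelled ILC1I and ILC1l were read as 1 population. Of 37620 entries, 32897 (99.02% of counts) were matched to symbols with a GRCm38 annotation, also the source of exon lengths.

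Each set was fitted separately in R 4.3.3 with edgeR 4.0.16 (TMM, filterByExpr, quasi-likelihood F test, 1 mean per population, Benjamini-Hochberg adjusted p under 0.05), testing 15727 and 16828 genes; DESeq2 1.42.0 was an alternative. The fit was tested on simulated data. Each SE of a log2 fold change was worked back as its absolute value over the square root of the F statistic. Such an SE rests on the spread shared by all populations of a set. Tables and figures used Python 3.11.15, pandas 2.3.3 and matplotlib 3.10.9. The 9 genes and all lists were chosen with earlier results of these data known. All 9 genes are named; of other lists, up to 2 called genes each way with the smallest adjusted p, and Cd3e, Cd8a and Klrb1c as gate checks; further list genes named here were chosen after their values were seen. For likeness, the 3 genes of highest Pearson r were taken among genes with a mean of at least 10 CPM, without predicted genes and receptor segments. Floors (3 counts) cover counting error only.

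Alternatives were RLE scaling, no filter, DESeq2, all 22 libraries in 1 fit, a replicate block and leaving out each library; those without genes that follow epithelial or myeloid markers and without the TCRgd+NK1.1- or the TCR-NK1.1+ population were chosen after seeing the data.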

Additional observations from a re-analysis of the deposited data

How the results depend on the processing

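Of 1125 values of single genes under the alternatives, 1061 kept their side of the threshold, 35 lost a call and 29 gained one. No value that was called in the main fit or in the alternative changed sign. Sign changes of values called in neither were counted among the 1061. Without the filter on low counts, the number of the 9 genes called moved to 2 in NK1.1+ against PD1-NK1.1- CD8a+ T cells, 1 in PD1+ against PD1-NK1.1-, 2 and 1 in NK1.1+ CD8a+ and CD8a-NK1.1+ T cells against TCR-NK1.1+ cells, 4 in TCRgd+ILTC1 against TCRgd+NK1.1-, 1 in the difference of ILTC1 contrasts and 7 over the second set. Unfiltered calls over all genes rose there too, to 747, 397, 1452, 287, 1786, 479 and 3675, in the same order. Unfiltered, Themis was also added in NK1.1+ against PD1+ CD8a+ T cells (adjusted p = 6.45e-15, edgeR). Ptpn22 was added in both ILTC1 against ILC1l and cNK cells (0.0195). Unfiltered calls over all genes were 838 for the former comparison and 784 for the latter. Small moves of the counts over a whole set, if any, are left out here. DESeq2 called 1, 4, 1 and 3 in PD1+ against PD1-NK1.1-, in NK1.1+ CD8a+ and CD8a-NK1.1+ T cells against TCR-NK1.1+ cells, and in TCRgd+ILTC1 against TCRgd+NK1.1-. It called 3 in NK1.1+ against PD1+ CD8a+ T cells, with Fyn added (adjusted p = 0.0142). DESeq2 calls over all genes in these comparisons were 381, 1143, 201, 1872 and 878, in the same order. All 22 libraries in 1 fit gave 1, 1 and 2 in ILC1l against cNK, TCRab+ILTC1 against TCRb+CD8a+NK1.1- and TCRgd+ILTC1 against TCRgd+NK1.1- cells. Calls over all genes in that fit were 327, 282 and 626. PD1+ against PD1-NK1.1- cells had 1 call (Txk) without genes following other cells' markers (114 over all genes) and without the TCR-NK1.1+ population (84). Leaving out that population also added Themis in NK1.1+ against PD1+ CD8a+ T cells (adjusted p = 0.0252, edgeR). Leaving out the TCRgd+NK1.1- population added Ptpn22 in both ILTC1 against ILC1l and cNK cells (0.0181). The cause was not tested.

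Leaving out 1 library, with the lone library assumed to vary like the others, gave 1 to 1 calls in NK1.1+ CD8a+ against PD1+, 0 to 0 against PD1-NK1.1-, 0 to 3 and 0 to 1 in NK1.1+ CD8a+ and CD8a-NK1.1+ T cells against TCR-NK1.1+, 0 to 0 in PD1+ against PD1-NK1.1-, between both ILTC1 and in the difference of ILTC1 contrasts, 0 to 2 in ILC1l against cNK, in TCRab+ILTC1 and in TCRgd+ILTC1 against their NK1.1- cells, 2 to 3 in both ILTC1 against ILC1l and cNK, and 2 to 5 and 3 to 5 over the first and second sets. Calls over all genes, with their range over all alternatives, were 332 (116 to 878), 280 (46 to 795) and 242 (3 to 1452) for NK1.1+ CD8a+ T cells against PD1+, PD1-NK1.1- and TCR-NK1.1+ cells, 71 (14 to 397) for PD1+ against PD1-NK1.1-, 0 (0 to 318) for CD8a-NK1.1+ T cells against TCR-NK1.1+, 171 (34 to 916) for ILC1l against cNK, 88 (11 to 1335) and 268 (7 to 1872) for TCRab+ILTC1 and TCRgd+ILTC1 against their NK1.1- cells, 0 (0 to 297) between both ILTC1, 165 (57 to 784) for both against ILC1l and cNK, 9 (0 to 479) for the difference of ILTC1 contrasts, and 959 (615 to 3099) and 801 (431 to 3675) over the first and second sets.

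Replicate numbers were not shown to pair libraries: deviations of same-numbered libraries correlated at 0.055 to 0.227 in the first set (median 0.157, over 0.1 in 8 of 10 pairs of populations) and at -0.041 to 0.123 in the second (median 0.059, over 0.1 in 1 of 15). With the replicate block the 9 genes had 1 call in PD1+ against PD1-NK1.1- (Txk, adjusted p = 0.03, edgeR), 1 in ILC1l against cNK, 1 in TCRab+ILTC1 against TCRb+CD8a+NK1.1- and 2 in TCRgd+ILTC1 against TCRgd+NK1.1- cells (Lck added, 0.0338); Themis had adjusted p of 0.0654 in ILC1l against cNK and 0.0615 in TCRab+ILTC1. The block changed no other call of these genes between populations. Calls over all genes became 498 and 421 in NK1.1+ CD8a+ T cells against PD1+ and PD1-NK1.1- cells, and 125 in PD1+ against PD1-NK1.1- cells. They became 387 and 16 in NK1.1+ CD8a+ and CD8a-NK1.1+ T cells against TCR-NK1.1+ cells. Over the first and second sets the block gave 6 and 5 of the 9.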
